A study of Homo sapiens with 6 samples.

Results

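The 10 genes described here mark or drive the myeloid and B-lymphoid fates that a T-cell precursor can still take before it commits to the T lineage. They are SPI1, CEBPA, HHEX, MEF2C, BCL11A, MPO, PRSS57, EBF1, PAX5 and CD79A. They were taken from 19722 genes that the probes of the array named, as all non-control probes whose RefSeq accession maps to one of these 10 symbols, which gave 15 probes. The genes were selected on their detection and on their intensity differences between these same arrays, so the values of the 10 genes below are a description and carry no test. Differences of other lineage genes are given with the test over all probes, although their lists were also chosen with earlier results of these data known.

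The cells were RPMI-8402, a long-established line of human T-cell acute lymphoblastic leukaemia, so they are leukaemic and represent a single line. They were transduced with a lentivirus carrying a control short hairpin RNA, a hairpin against GATA3 (shGATA3) or a hairpin against TCF7 (shTCF1), the gene of the transcription factor TCF1. Transduced cells carried EGFP, were collected after 48 h of culture and were sorted for it, and 100 ng of total RNA per sample was labelled with Cy3. Each of the 3 groups had 2 samples, each hybridised to its own 1-colour Agilent array, and the labels do not say whether the 2 samples came from separate transductions, although the study describes its hairpin arrays as independent experiments. The comparison asks how genes of the alternative fates respond when either T-lineage factor is targeted.

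A haematopoietic precursor reaches the granulocyte, monocyte or B-cell fate through transcription factors that reinforce their own programme and oppose the others. PU.1, encoded by SPI1, is an ETS-family factor used by both myeloid and B cells. C/EBP alpha, encoded by CEBPA, drives granulocyte genes such as MPO, the myeloperoxidase of neutrophil granules. EBF1 and PAX5 install and guard B-cell identity and switch on CD79A, the signalling chain of the B-cell receptor. HHEX, MEF2C and BCL11A encode regulators of early lymphoid and myeloid progenitors that are also found in immature T-cell leukaemias. PRSS57 encodes a serine protease stored in neutrophil granules.

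The labels were checked on the targeted genes. TCF7 was lower on both arrays labelled shTCF1, with normalized log2 intensities of 12.58 and 12.68 against 13.96 and 13.91 on the control arrays (difference -1.31, limma adjusted p = 0.00393, and -0.20 in the deposited matrix of normalized values). GATA3 was not lower on the arrays labelled shGATA3, which read 9.46 and 9.55 against 9.54 and 9.56 on the control arrays (difference -0.05, limma adjusted p = 0.795). That group is therefore called by its label, and a direction drawn from it is not a direction after a measured loss of GATA3. The scanner software marked 51.0% to 56.2% of an array's probes as well above background and 0 as saturated, and the number of arrays limits the precision. The 75th percentile of the intensity before normalization was 270 and 287 on the control arrays and 165 to 179 on the other 4. All 6 arrays lay on 1 slide in 1 scan, but the control arrays lay in its column 2 and the hairpin arrays in column 1, so that a control difference and the position on the slide cannot be told apart. Within column 1 the shTCF1 arrays lay in rows 1 and 2 and those labelled shGATA3 in rows 3 and 4. A difference between the hairpin groups therefore cannot be told apart from position either. Of 15 T-lineage genes, such as CD3D, LCK and BCL11B, 12 were well above background on all 6 arrays and only CD1E was dim on all of them. In a bulk sample, fewer cells that express a gene and less RNA per cell cannot be told apart.

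HHEX and PRSS57 carried the largest differences among the 10 genes, and the RefSeq sequence just upstream of each is shown for that reason. Each window holds the 250 bases before the annotated start on assembly GRCh38.p14, written 5′ to 3′ on the strand of the gene. HHEX lies on the plus strand, with its window at chr10:92689705-92689954, and PRSS57 on the minus strand, with its window at chr19:695453-695702. Capitals mark matches to the GATA-factor motif.
HHEX: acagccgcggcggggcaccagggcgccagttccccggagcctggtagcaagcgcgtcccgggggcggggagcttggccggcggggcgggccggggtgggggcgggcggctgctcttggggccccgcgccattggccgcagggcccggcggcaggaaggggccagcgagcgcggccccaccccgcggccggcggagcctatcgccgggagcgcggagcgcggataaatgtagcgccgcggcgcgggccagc
PRSS57: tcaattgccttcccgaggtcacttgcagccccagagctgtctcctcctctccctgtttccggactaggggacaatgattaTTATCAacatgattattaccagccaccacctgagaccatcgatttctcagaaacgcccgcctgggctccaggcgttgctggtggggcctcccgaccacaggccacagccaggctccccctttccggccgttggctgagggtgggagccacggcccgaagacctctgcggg
The motifs searched on both strands were AGATAA, its variant AGATAG, the related TGATAA and its variant TGATAG for GATA factors, CTTTGAT with its variant CTTTGAA for TCF and LEF factors such as TCF1, GAGGAAG for ETS factors such as PU.1, and TTNCNNAA for C/EBP factors. Among the windows of the same length before 35116 RefSeq starts, 22.3% held a GATA match, 5.94% a TCF or LEF match, 11.2% an ETS match and 33.2% a C/EBP match. The PRSS57 window held 1 match, to the GATA motif TGATAA on the opposite strand, 170 to 165 bases before the start. The HHEX window held no match to any of these letters, and 81.2% of its bases were G or C, against 60.8% in the PRSS57 window. A match in such a window is a description of the letters and says nothing about binding. Entries were found for 8 of the 10 genes, 18 in all, because MEF2C has 7 listed starts and BCL11A has 5. SPI1 and MPO were not matched.

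Of the 10 genes, 7 had a probe that both arrays of some group measured well above background, the condition for testing, and 5 of these (SPI1, HHEX, BCL11A, CD79A and MPO) had a probe above background on all 6 arrays. MEF2C and PRSS57 met it only through the groups in which they were higher. CEBPA, EBF1 and PAX5 had none that met the condition. The plot of levels shows each gene on each array. A level is a normalized log2 intensity of a probe, and levels of different probes are not on a common scale.

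**Figure D1:**
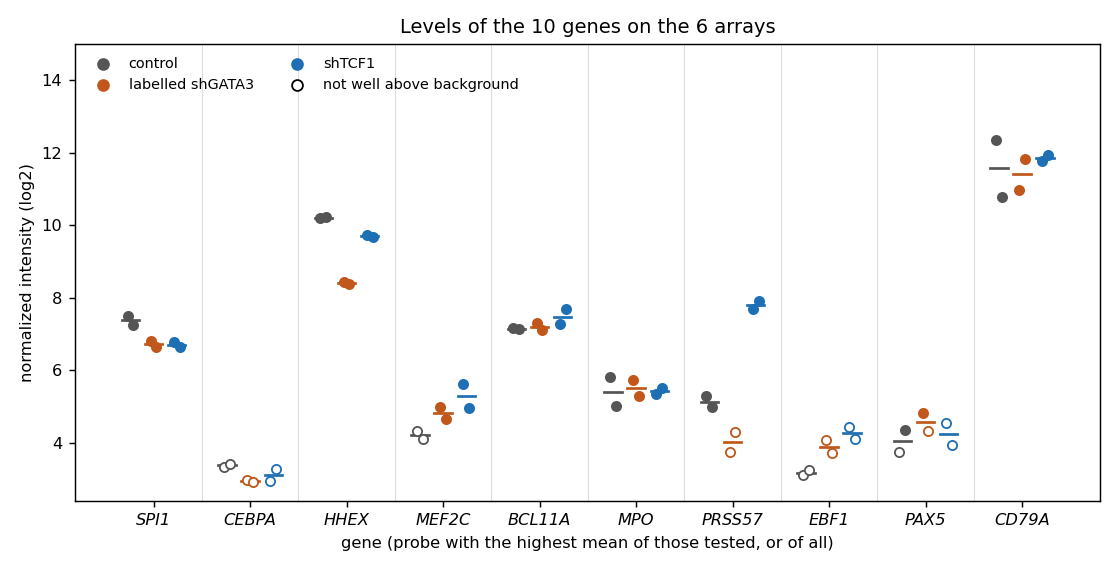
Normalized log2 intensity (vertical axis) of the 10 genes on the 6 arrays, 1 point per array and 1 probe per gene, with a bar at each group mean, and open points for probes not well above background. HHEX on the arrays labelled shGATA3 lies at 8.43 and 8.38, below all other arrays, PRSS57 on the shTCF1 arrays lies at 7.68 and 7.92, above all others, and the CD79A points of the control group are 1.57 apart.

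Among the early haematopoietic regulators, HHEX showed the clearest ordering of the groups. Its level was 10.19 and 10.23 on the control arrays, 9.72 and 9.69 on the shTCF1 arrays and 8.43 and 8.38 on the arrays labelled shGATA3. The 3 groups did not overlap, and within each group the 2 arrays lay within 0.1 of each other. The arrays labelled shGATA3 were lower than control by a difference of -1.80 (SE 0.10), or 3.49-fold. The shTCF1 arrays were lower than control by a difference of -0.50 (SE 0.10), or 1.42-fold, and the direct comparison of the hairpin groups gave -1.30 (SE 0.10), or 2.46-fold lower on the arrays labelled shGATA3. Before normalization the same probe read intensities of 1484 and 1675, 747 and 673, and 293 and 292 in that order of groups, which includes the greater brightness of the control arrays. The gene whose levels followed those of HHEX most closely over the 6 arrays was CDH4, a cadherin gene, at a root mean square distance of 0.0834 on the log2 scale after each gene's mean was removed.

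SPI1 was lower in both hairpin groups. Its level was 7.49 and 7.26 on the control arrays, 6.81 and 6.65 on those labelled shGATA3 and 6.77 and 6.65 on the shTCF1 arrays. Neither hairpin group overlapped the control, whereas the hairpin groups overlapped each other. Against control the differences were -0.65 (SE 0.13), or 1.57-fold, and -0.67 (SE 0.13), or 1.59-fold, and the difference between the hairpin groups was 0.02 (SE 0.13). Both comparisons use the same control arrays. The direction of SPI1 holds for the scanner intensities, whereas the deposited matrix of normalized values gave differences of the opposite sign, 0.55 and 0.57. Of its ETS relatives, SPIC was dim on all arrays, and SPIB was above background on 5 arrays and not called (differences from control of 0.35 and 0.51, limma adjusted p = 0.249 and 0.0885). The genes nearest to SPI1 by level were USP45 at a distance of 0.0279 and GSPT1 at 0.046.

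MEF2C measured well above background in the hairpin groups but not in the control group. Its probe read 4.33 and 4.10 on the control arrays, both not well above background, 4.98 and 4.65 on those labelled shGATA3 and 5.62 and 4.97 on the shTCF1 arrays. A bound on a fold sets dim arrays to the lowest signal that counted as well above background, or to their own where that was higher. For MEF2C the dim control readings lay at about that lowest signal, so that no bound apart from the fitted difference could be given. The fitted differences from control were 0.60 (SE 0.24), or 1.52-fold, on the arrays labelled shGATA3 and 1.08 (SE 0.24), or 2.11-fold, on the shTCF1 arrays. The former was not called. Both sizes hold for the main normalization alone. Under the other scalings of the scanner intensities the log2 differences ran from 0.09 to 0.84 and from 0.36 to 1.40, lowest after normexp correction. The hairpin groups overlapped each other, with a difference of -0.48 (SE 0.24). The family relatives MEF2A, MEF2B and MEF2D were bright on all arrays. MEF2D rose by 0.58 (limma adjusted p = 0.0325) and MEF2A fell by a difference of -0.56 (adjusted p = 0.0287) on the shTCF1 arrays against control, calls held in 2 and 3 of the 6 fits that left out 1 array (the MEF2D call was lost without any array of the groups compared, the MEF2A call without either control array or shTCF1 replicate 2). MEF2B differed by -0.06 (adjusted p = 0.681), and none of the 3 relatives was called between the arrays labelled shGATA3 and control (differences of 0.03, -0.02 and 0.22 for MEF2A, MEF2B and MEF2D).

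BCL11A was represented by 4 probes that did not all behave alike. The brightest, A_24_P402588, read 7.17 and 7.14 on the control arrays, 7.30 and 7.10 on those labelled shGATA3 and 7.27 and 7.68 on the shTCF1 arrays, with differences from control of 0.05 and 0.32 (SE 0.16). The deposited values put these 2 differences at 1.04 and 1.14. A_24_P411186 read 5.64 and 5.63 on the control arrays, 6.40 and 5.93 on those labelled shGATA3 and 6.46 and 5.91 on the shTCF1 arrays, with differences of 0.53 and 0.55 (SE 0.23). On this probe each hairpin group lay above both control arrays but spread over about as much as it differed from them. A_33_P3249595 was well above background only on replicate 2 of each hairpin group, at 4.61 and 4.77, and A_33_P3249589 was dim on all 6 arrays. BCL11B, the T-lineage relative of BCL11A, was bright on all arrays and not called, with differences from control of -0.07 (limma adjusted p = 0.732) on those labelled shGATA3 and -0.26 (adjusted p = 0.154) on the shTCF1 arrays. RRAGD and MNT lay nearest to the brightest BCL11A probe, at distances of 0.0346 and 0.0548.

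Of the granule proteins, PRSS57 lay above the control on one set of hairpin arrays and below it on the other. It read 5.29 and 4.99 on the control arrays, 3.76 and 4.30 on the arrays labelled shGATA3, where it was not well above background on either array, and 7.68 and 7.92 on the shTCF1 arrays. The 3 groups did not overlap. PRSS57 was higher on the shTCF1 arrays than on control arrays by a difference of 2.67 (SE 0.21), or 6.35-fold. On the arrays labelled shGATA3 it was at least 1.89-fold lower than on control arrays and at least 12-fold lower than on the shTCF1 arrays. The fitted difference from control was -1.11 (SE 0.21). These bounds make no allowance for the spread between replicates, as do none of those given below, and hold for the main normalization alone. The intensities before normalization were 44.0 and 37.6 for control, 7.88 and 13.8 for the arrays labelled shGATA3 and 180 and 196 for the shTCF1 arrays. These intensities include the greater brightness of the control arrays. The size of the difference depended on how the background was handled, since normexp correction of the raw signal gave 1.52 in place of 2.67 and -1.85 in place of the -3.77 fitted between the hairpin groups.

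MPO was present at a low level in every group and did not separate them. It read 5.80 and 5.01 on the control arrays, 5.73 and 5.30 on those labelled shGATA3 and 5.34 and 5.50 on the shTCF1 arrays. All 3 groups overlapped, and the differences from control of 0.11 and 0.02 were smaller than their standard error of 0.28. The replicate difference of 0.80 within the control group exceeded that of 97.7% of the tested probes. Among its relatives in the peroxidase family, EPX was dim on all arrays and LPO was above background on 1 array. STPG4 and SLC25A2 lay nearest to MPO, at distances of 0.0929 and 0.0992.

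CEBPA, the granulocyte factor, was dim on all 6 arrays, with readings between 2.92 and 3.40, and no fold is given for it. Of the other C/EBP factors, CEBPB, CEBPD and CEBPG were bright on every array and read 11.11 and 11.21, 12.59 and 12.73, and 11.39 and 11.44 on the control arrays. CEBPE, a factor of late granulocytes, was above background on 3 of 6 arrays and dim on both control arrays. None of the 4 was called in any comparison. The CEBPD difference between shTCF1 and control arrays came nearest to a call, at 0.47 (limma adjusted p = 0.0599).

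The B-lineage factors EBF1 and PAX5 were not well above background on most arrays. All 3 EBF1 probes were dim on all 6 arrays, with readings between 2.97 and 4.44. The PAX5 probe was well above background on control replicate 2 at 4.36 and on replicate 1 of the arrays labelled shGATA3 at 4.82, and dim on the other 4 arrays, so that no group measured it on both arrays. Of their relatives, EBF4 was bright and rose by 0.59 on the shTCF1 arrays against control (limma adjusted p = 0.0321), which held in 2 of the 6 fits without 1 array. PAX6, a developmental paired-box gene, fell there by a difference of -1.45 (limma adjusted p = 0.0036), from 7.46 and 7.43 to 5.93 and 6.06, and this held in all 6 such fits.

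CD79A was bright on every array, while EBF1 and PAX5 were at or near background. It read 12.35 and 10.78 on the control arrays, 10.97 and 11.83 on those labelled shGATA3 and 11.78 and 11.94 on the shTCF1 arrays. All groups overlapped. The 2 control arrays differed by more than those of 99.4% of the tested probes, and the arrays labelled shGATA3 by more than those of 98.5%. The differences from control were -0.16 and 0.29, with a standard error of 0.53. Leaving out control replicate 1 or 2 moved the shTCF1 difference between -0.49 and 1.08, so neither size nor direction of a CD79A difference can be given from these arrays. CD79B, its partner chain, was above background on 2 of 6 arrays and was not tested. The genes nearest to CD79A were YY2 and SDC3, at distances of 0.21 and 0.23.

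**Figure D2:**
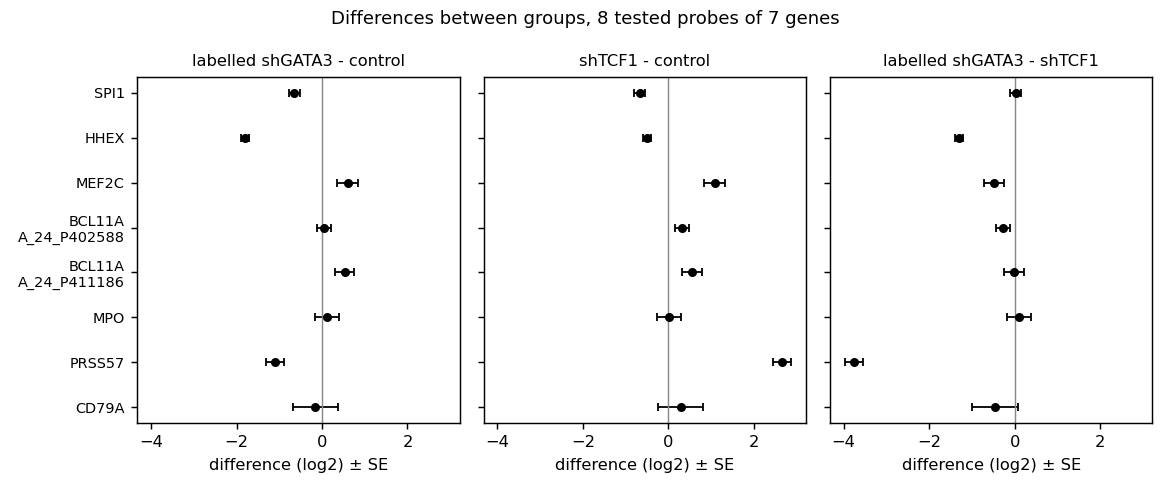
Fitted log2 differences (horizontal axis) with standard error bars for the 8 tested probes of 7 genes in the 3 comparisons, each group with 2 arrays. The HHEX and PRSS57 points lie farthest from 0 in both comparisons that include the arrays labelled shGATA3. Between shTCF1 and control PRSS57 and MEF2C lie farthest, and HHEX lies at -0.50. CD79A has the widest bar (SE 0.53). The control value of MEF2C and the shGATA3 value of PRSS57 come from probes not well above background. Differences that use those values rest on dim readings, with the limits given in the text.

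Counted over the 7 tested genes, 3 were called at an adjusted p below 0.05 between the arrays labelled shGATA3 and control, all of them lower (HHEX, PRSS57 and SPI1), where limma called 3.96% of all 31134 tested probes lower and 2.87% higher. Between shTCF1 and control, 2 were called higher (PRSS57 and MEF2C) and 2 lower (SPI1 and HHEX), where 7.21% of all probes were called higher and 9.73% lower. Between the arrays labelled shGATA3 and shTCF1, 2 were called, both lower (PRSS57 and HHEX), where 2.60% of all probes were called lower and 3.58% higher. The groups did not overlap for 4, 5 and 2 of the 7 genes in these comparisons, against 60.2%, 66.9% and 52.0% of all tested probes. Because the genes were chosen with these comparisons known, the counts are no test of them and nothing is read from them. Of these 9 calls, 5 were lost on leaving out 1 array. PRSS57 and SPI1 between the arrays labelled shGATA3 and control were called in 0 of 6 such fits, SPI1 and HHEX between shTCF1 and control in the 2 fits without an array labelled shGATA3, and MEF2C only without shTCF1 replicate 2.

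**Figure D3:**
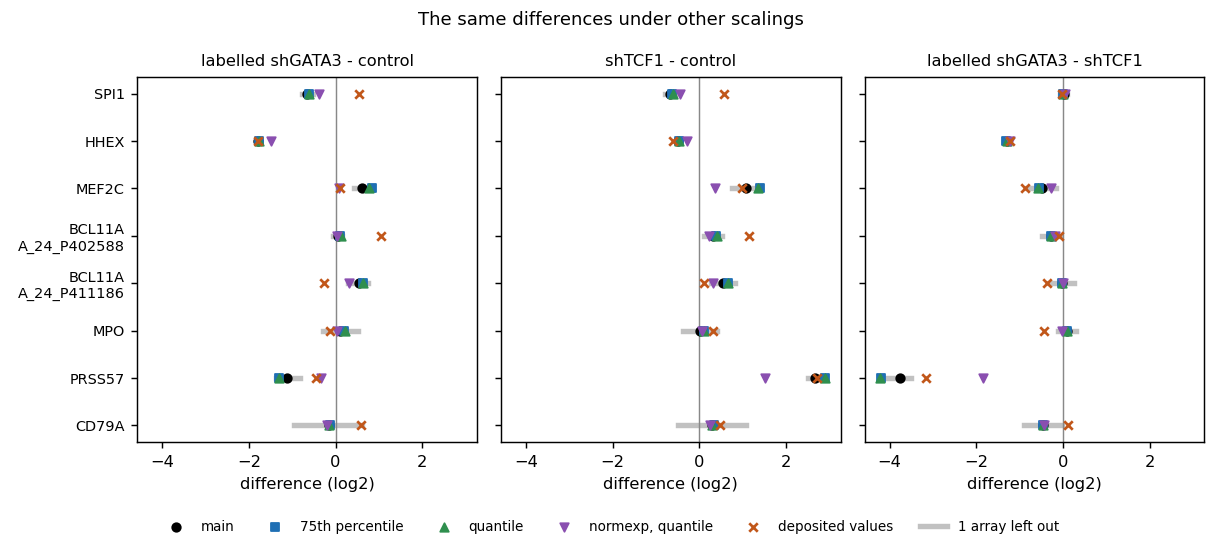
Log2 differences (horizontal axis) of the 8 tested probes in the 3 comparisons after the main normalization (black), after 3 other scalings of the scanner intensities and in the deposited values, with a grey bar from the lowest to the highest value when 1 array was left out. The HHEX symbols lie between -1.80 and -1.50 against control in the group labelled shGATA3, the SPI1 crosses for the deposited values lie at 0.55 and 0.57 on the other side of 0, and the grey bars of CD79A cross 0 in both comparisons with control.

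The 10 genes were set in the wider programmes through 8 lists of myeloid, B-lineage, antigen-presentation and dendritic-cell genes. These lists held 95 further genes, of which 58 were tested. Between the arrays labelled shGATA3 and control, 4 were called higher and 5 lower, between shTCF1 and control 10 higher and 4 lower, and between the hairpin groups 6 higher and 8 lower in the group labelled shGATA3. Over all 14491 tested genes, with 1 probe per gene, 2.79% were called higher and 4.14% lower in the first comparison, 6.26% and 9.99% in the second and 3.75% and 2.83% in the third. The median differences over the 58 genes were 0.08, 0.13 and -0.11, against -0.03, -0.05 and 0.00 over the 14491 tested genes of the array. A call said below to hold in 2 of the 6 fits that left out 1 array was lost whenever an array of the groups compared was left out.

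**Figure D4:**
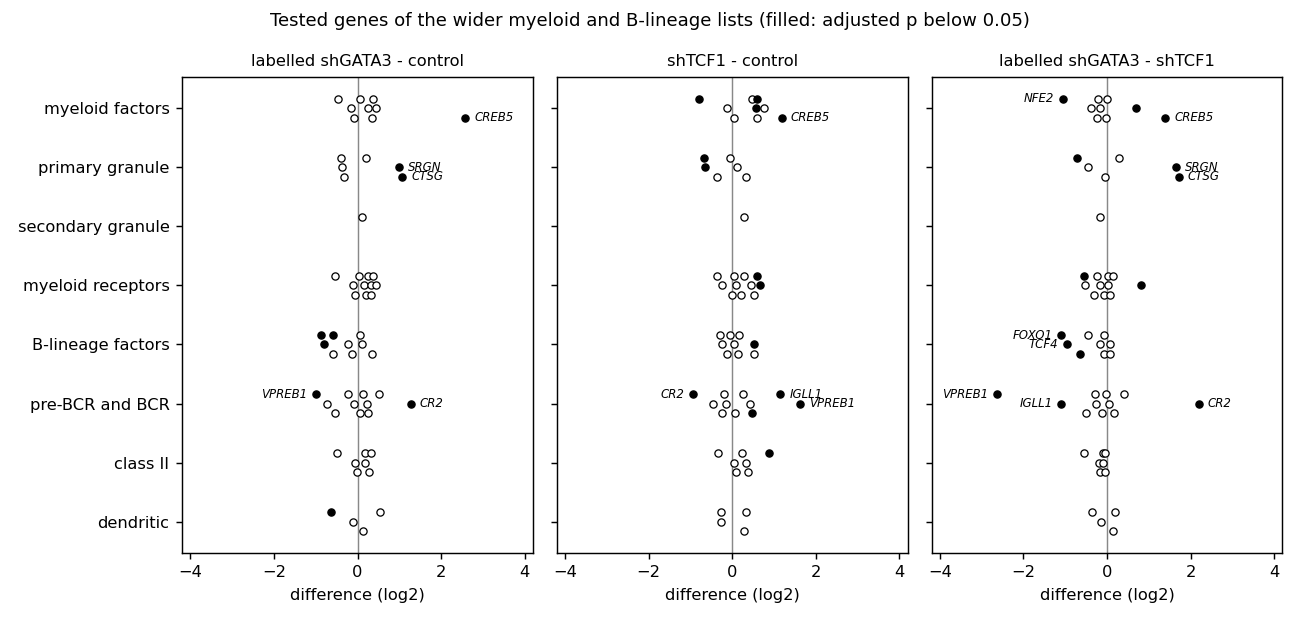
Log2 differences (horizontal axis) of the tested genes of 8 lineage lists (rows) in the 3 comparisons, 1 point per gene, filled where limma called it, with names for called genes that differ by more than 0.9. CREB5, dim on the control arrays and tested only through the hairpin groups, lies at 2.58 in the group labelled shGATA3 against control. VPREB1 and CR2 lie at opposite ends of the row of pre-B-cell and B-cell receptor genes.

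Of 11 other myeloid transcription factors, 9 were tested. CREB5, a bZIP factor, was dim on both control arrays and bright on the other 4, at 6.73 and 6.52 on those labelled shGATA3 and 5.34 and 5.10 on the shTCF1 arrays (limma adjusted p = 0.00251 and 0.0121). It was at least 5.13-fold and at least 1.94-fold higher there than on the control arrays. CREB5 met the condition for testing only through the hairpin arrays, which favours that direction. Its fitted difference on the arrays labelled shGATA3 was 2.58 and ran from 1.01 to 3.06 under the other scalings of the scanner intensities, and that on the shTCF1 arrays was 1.18 and ran from 0.31 to 1.56, so that the bounds hold for the main normalization alone. NFE2, a factor of the megakaryocyte and erythroid lineages, rose on the shTCF1 arrays by 0.57 (adjusted p = 0.0262), as did MAF by 0.60 (adjusted p = 0.0249), whereas ID1, an inhibitor of basic helix-loop-helix factors, fell by a difference of -0.79 (adjusted p = 0.00839). The CREB5 call on the arrays labelled shGATA3 and the NFE2 call between the hairpin groups (-1.05, adjusted p = 0.00677) held in all 6 fits without 1 array. The shTCF1 calls of NFE2 and MAF held in 2 of 6, that of CREB5 in 4 of 6 (not without replicate 1 of the control or the shTCF1 arrays) and that of ID1 in 5 of 6 (adjusted p = 0.059 without control replicate 1). GFI1, CEBPB and KLF4 were bright on all arrays without a call, and IRF8 and EGR2 were dim on all.

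Of the granule genes around PRSS57 and MPO, CTSG and SRGN were ordered opposite to PRSS57. CTSC lay in the same order as PRSS57, but its differences from control were not called. They were -0.38 on the arrays labelled shGATA3 (limma adjusted p = 0.127) and 0.34 on the shTCF1 arrays (adjusted p = 0.119). The deposited values put the former at 0.84. Of 12 listed genes of primary granules 6 were tested, and of 7 of secondary granules 1 was tested (MMP9, not called, with limma adjusted p of 0.576, 0.158 and 0.461), with LTF, CAMP, LCN2, CEACAM8 and MMP8 dim on all arrays. CTSG, the cathepsin G gene and a serine protease like PRSS57, rose from 13.61 and 13.69 on control arrays to 14.59 and 14.86 in the group labelled shGATA3 (difference 1.07, limma adjusted p = 0.0116) and fell to 12.96 and 13.04 on the shTCF1 arrays (difference -0.65, adjusted p = 0.0244). The former was lost without control replicate 1 (adjusted p = 0.069), and the latter held in 2 of 6 fits. This order of the groups was the reverse of that of PRSS57. SRGN, the proteoglycan core that packs granule proteases, was ordered as CTSG was, with differences of 0.99 (adjusted p = 0.0128) and -0.67 (adjusted p = 0.0207), in 2 and 3 of 6 fits (the latter lost without either control array or shTCF1 replicate 1), although the deposited values put the latter at 0.63. Between the hairpin groups CTSG and SRGN were higher on the arrays labelled shGATA3 by 1.72 and 1.65 (adjusted p = 0.00221 for each), in all 6 fits without 1 array. CTSC, which activates granule proteases, was lower there by a difference of -0.72 (adjusted p = 0.0311), a call lost in all 6 of those fits. The neutrophil protease genes ELANE and AZU1 were above background on 2 arrays and 1 array and were not tested, and PRTN3 was not called.

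Of 18 myeloid receptor and surface genes, 11 were tested. In the group labelled shGATA3 limma called 0 of them against control, with 4 at an unadjusted p under 0.05, and their differences ran from -0.53 to 0.45. On the shTCF1 arrays CSF3R, the receptor for granulocyte colony-stimulating factor, rose by 0.67 (adjusted p = 0.0152) and FCER1G, the common Fc receptor chain, by 0.59 (adjusted p = 0.0205), in 3 and 2 of the 6 fits without 1 array (the CSF3R call was lost without either control array or shTCF1 replicate 1). Between the hairpin groups FCER1G was lower on the arrays labelled shGATA3 by a difference of -0.56 (limma adjusted p = 0.0382), which ran from -0.64 to -0.48 without 1 array. ANPEP was higher there by 0.81 (adjusted p = 0.0384), and by 0.20 to 1.07 under the other scalings of the scanner intensities. It was dim on the control and shTCF1 arrays and met the condition for testing only through those labelled shGATA3, which favours that direction. CD14 and ITGAM were bright and not called, and CD33, CSF2RA, CLEC12A and FLT3 were dim on all arrays. The summed intensity of 4 monocyte markers (CD14, CSF1R, CD68 and ITGAM), in units of the 75th percentile of an array, was 1.22 to 1.24 on control arrays, 1.19 to 1.30 on those labelled shGATA3 and 1.29 to 1.39 on the shTCF1 arrays. CD14 alone made up 60.7% to 65.9% of that sum, which therefore mostly restates CD14, and CSF1R was dim on both control arrays.

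**Figure D5:**
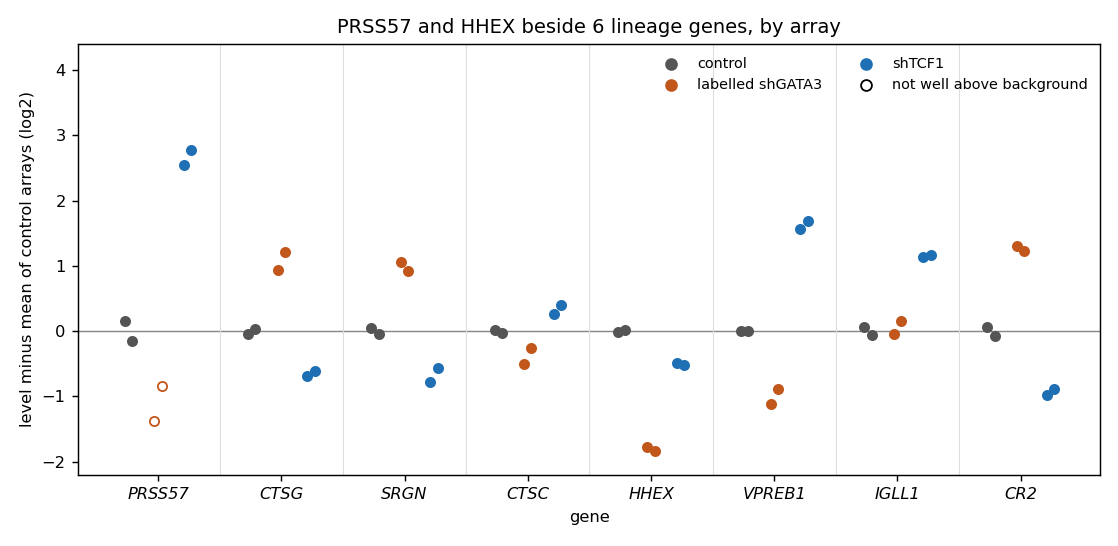
Level on each array minus the mean of the control arrays (log2, vertical axis) for PRSS57, HHEX and 6 other lineage genes chosen after their values were seen, with 1 point per array and open points where the probe was not well above background. PRSS57, VPREB1 and CTSC have the shTCF1 arrays above and the arrays labelled shGATA3 below control, and CTSG, SRGN and CR2 show the opposite order. The CTSC differences from control were not called.

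Among B-lineage factors other than EBF1 and PAX5, 9 of 12 were tested. On the arrays labelled shGATA3, POU2AF1, a B-cell coactivator, fell by a difference of -0.88 (SE 0.10, limma adjusted p = 0.0114), TCF4, an E protein, by a difference of -0.80 (adjusted p = 0.0132) and FOXO1 by a difference of -0.58 (adjusted p = 0.0334), in 4, 2 and 2 of the 6 fits without 1 array (the POU2AF1 call was lost without control replicate 1 or shGATA3 replicate 2). FOXO1 rose by 0.51 on the shTCF1 arrays (adjusted p = 0.0274, in 2 of 6 fits), and it was 7.74 and 7.78 on control arrays, 7.16 and 7.20 on those labelled shGATA3 and 8.20 and 8.35 on the shTCF1 arrays. Between the hairpin groups FOXO1 and TCF4 were lower on the arrays labelled shGATA3 by differences of -1.09 (adjusted p = 0.00476) and -0.96 (adjusted p = 0.00628), in all 6 such fits, and POU2AF1 by -0.64 (adjusted p = 0.024) with the call lost in all 6. TCF3 and ETV6 were bright and not called.

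Of 17 genes of the pre-B-cell receptor, the B-cell receptor and its surface partners, 11 were tested. VPREB1 and IGLL1 encode the surrogate light chain with which an early B cell tests its heavy chain. VPREB1 read 11.21 on both control arrays, 10.09 and 10.32 on those labelled shGATA3 and 12.78 and 12.90 on the shTCF1 arrays. It rose by 1.63 on the shTCF1 arrays (SE 0.12, limma adjusted p = 0.00385), in all 6 fits without 1 array, and fell by a difference of -1.0 (adjusted p = 0.0124) on the arrays labelled shGATA3, in 4 of 6 (lost without either control array), where the deposited values gave 1.71. IGLL1 rose by 1.15 on the shTCF1 arrays (adjusted p = 0.00633), from 9.30 and 9.18 to 10.37 and 10.40, also in all 6 fits, and differed by 0.06 on the arrays labelled shGATA3 (adjusted p = 0.786). BLK, a B-cell receptor kinase also used in early lymphocytes, rose on the shTCF1 arrays by 0.47 (adjusted p = 0.0425), in 2 of 6 fits.

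CR2, the complement receptor of mature B cells, was ordered the other way, with 12.88 and 12.74 on control arrays, 14.12 and 14.04 on those labelled shGATA3 and 11.83 and 11.92 on the shTCF1 arrays. The differences were 1.27 (limma adjusted p = 0.00475) and -0.93 (adjusted p = 0.00792), in 6 and 5 of 6 fits without 1 array (the latter at adjusted p = 0.0516 without control replicate 1). Between the hairpin groups VPREB1 was lower on the arrays labelled shGATA3 by a difference of -2.63 (adjusted p = 0.000734), IGLL1 lower by -1.09 (adjusted p = 0.00623) and CR2 higher by 2.20 (adjusted p = 0.000869), in all 6 such fits. The summed intensity of 4 B-cell markers (MS4A1, CD22, CR2 and CD72), in units of the 75th percentile, was 33.6 to 36.1 on control arrays, 84.9 to 87.5 on those labelled shGATA3 and 18.5 to 19.5 on the shTCF1 arrays. CR2 alone made up 98.2% to 99.7% of that sum, which therefore restates CR2. CD22 was dim on all arrays, CD72 was above background on 1, and MS4A1 was not called in any comparison. The part of the B-cell marker list in the values of CD79A, VPREB1 or PRSS57 was not tested.

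Among class II and dendritic-cell genes 2 were called in any of the 3 comparisons. Of 10 class II genes 7 were tested, and HLA-DPB1 was called higher on the shTCF1 arrays, where it was above background, than on the control arrays, where it was dim (at least 1.3-fold, limma adjusted p = 0.0367, in 2 of 6 fits without 1 array and under 2 of the 3 other scalings of the scanner intensities). It met the condition for testing only through the shTCF1 arrays, which favours that direction. Its bound holds for the main normalization alone, since those other scalings gave log2 differences from 0.22 to 1.32. HLA-DRA and CD74 were dim on all arrays, and CIITA, their common activator, was bright and not called. HLA-DRB1, HLA-DPA1, HLA-DMA, HLA-DOA and HLA-DOB were also bright on all arrays and not called in any comparison. Of 8 dendritic-cell genes 4 were tested, and BATF3 fell on the arrays labelled shGATA3 by a difference of -0.64 (limma adjusted p = 0.0246), in 2 of 6 fits without 1 array.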

How the data were processed

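Agilent Feature Extraction (10.7.1.1 per the file headers, 9.1 per the labels) gave the deposited intensity values, with the background of each spot subtracted and arrays not scaled to each other. A deposited matrix held log2 values that the authors' methods call VSN-normalized, without a stated scale or centring. It served only as an alternative, because its control replicate 2 column correlated with no array above 0.832, and the columns of control replicate 1 and shGATA3 replicate 1 followed the other array of their group (0.996 and 0.994) more closely than their own (0.985 and 0.986). Its columns had medians of 4.94 to 5.11. All sample columns were assigned, and 0 were left unused.

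Control spots and spots marked as outliers were left out (71 probes removed), spots of a probe were averaged, and intensities were normalized with the VSN model in R 4.3.3 (trimming quantile 0.9, 7 iterations, 5 intensity strata). On these positive, floored intensities the arsinh likelihood had no finite optimum, so its limit, the log2 of the intensity plus a fitted offset per array, was used. Of 57176 unique probes, 25729 were named through a RefSeq table of GRCh38.p14. Probe coordinates, which the files give on hg19, were not used, and the promoter windows carry the GRCh38.p14 coordinates of the RefSeq sequences. The 31134 probes that both arrays of some group measured well above background were tested in limma 3.58.1 (functions lmFit, then eBayes, two-sided, with group as the only term, all 6 arrays, Benjamini-Hochberg over all tested probes, called below 0.05, 3 residual and 2.97 prior degrees of freedom), following the normalization and test that the study states. The code was tested on simulated data. For a single probe, the smallest two-sided p that an exact permutation of 2 arrays against 2 allows is 0.333, so calls rest on the pooled spread, which may be technical. Of several tested probes of a gene, the one with the highest mean stood for it.

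The 10 genes, the lists and the tests were chosen with earlier results of these data known. Named genes were the 10 genes, up to 4 called genes per list and comparison that were bright in both groups, the 2 genes nearest by level to each of the 10 that was bright on all arrays, GATA3, TCF7 and family relatives. HLA-DPB1 and ANPEP, called but dim in a group compared, and some list genes without a call were named in addition. The hairpin groups share their control arrays. Replicate numbers did not pair the samples. Some genes of the lists and of the nearest genes are not reported here and were left out of the list counts and marker sums.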

Additional observations from a re-analysis of the deposited data

How the results depend on the processing

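Alternatives changed how many probes were called more than the direction of the differences named here. The main counts of probes, of the 10 genes and of the wider list genes called were 2129, 3 and 9 between the arrays labelled shGATA3 and control, 5274, 4 and 14 between shTCF1 and control, and 1925, 2 and 14 between the hairpin groups. When 1 array was left out, with a lone array assumed to vary like the other groups, these ranged from 437 to 1454, 1 to 1 and 2 to 9, from 865 to 4930, 1 to 3 and 2 to 15, and from 701 to 1214, 2 to 2 and 8 to 11, with the lowest probe counts without control replicate 1, without control replicate 1 and without shGATA3 replicate 2. The deposited matrix gave 0 calls of probes, of the 10 genes and of list genes in limma in all 3 comparisons, with 1814, 2652 and 1642 probes at an unadjusted p under 0.05, and it reversed SPI1 (0.55 and 0.57), VPREB1 on the arrays labelled shGATA3 (1.71) and SRGN on the shTCF1 arrays (0.63), the cause of which was not tested. Differences without a call also changed sign there, such as those of BCL11A probe A_24_P411186 (-0.27), MEF2D (-0.37), CD79A (0.59) and MPO (-0.12) between the arrays labelled shGATA3 and control, and between shTCF1 and control it moved MAF from 0.60 to 0.01 and VPREB1 from 1.63 to 4.57. Normexp correction with quantile normalization gave 4280 and 3281 probes in the comparisons that include the arrays labelled shGATA3 (7726 between shTCF1 and control) and 15 list genes against control. An intensity trend gave 3914 and 3272 probes there. No filter on dim probes gave 560, 2272 and 901 probes, 1 and 2 of the 10 genes against control and 7 list genes between shTCF1 and control. Probes above background on all arrays, which drop MEF2C and PRSS57, gave 2 and 1 of the 10 genes between shTCF1 and control and between the hairpin groups. Scaling to the 75th percentile gave 1 of the 10 genes on the arrays labelled shGATA3, and moved the percentage of higher among called probes from 42.0% to 53.6% there and from 42.6% to 54.8% on the shTCF1 arrays (53.0% and 53.3% after quantile normalization). The replicate block gave 1328, 3853 and 1285 probes, although deviations of same-numbered arrays correlated at only -0.0398 to 0.0488. A block for slide or scan was not run, because all arrays shared 1 slide and 1 scan. Keeping outlier spots or counting any tested probe of a gene moved no count by over 1.5 times. Probes not well above background limit PRSS57 to bounds where it was dim, MEF2C to differences from dim control readings, and CEBPA, EBF1 and PAX5 to no comparison.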
